A study of Drosophila melanogaster with 6 samples.

Results

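Small nucleolar RNA (snoRNA) genes were followed in adult Drosophila ventral nerve cords (VNCs) with and without neuroblast (NB) tumors. The group was every gene row named snoRNA or snmRNA with at least 60 counts summed over the 6 libraries, which gave 295 of the 309 rows so named and 295 of 17494 genes in all. Membership was therefore chosen by the summed level, and summed counts are given below as a description only, with no test. Just inside the minimum were snoRNA:Me18S-G423 with 63 counts and snoRNA:Me18S-G393 with 68, and just outside were snmRNA:763 with 56, snoRNA:Me18S-G642 with 53 and snoRNA:Psi18S-640a with 52. The 14 rows left out had as few as 4 counts, and none was at 0 in every library.

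Most snoRNAs guide chemical changes of ribosomal RNA by base pairing with it. Box C/D snoRNAs direct 2'-O-methylation together with the methyltransferase Fibrillarin, and box H/ACA snoRNAs direct the conversion of uridine to pseudouridine together with the Dyskerin homolog Nop60B. The U3 snoRNA, also of the C/D kind, is needed for cleavage of the ribosomal RNA precursor. Most Drosophila snoRNAs are cut out of the introns of host genes, which either code for proteins such as ribosomal proteins or, like the Uhg genes, have a spliced RNA with no known protein product.

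By name, 113 members were H/ACA genes (names with Psi, after pseudouridine, or with aca), 102 were C/D genes (names with Me, after methylation, or with CD), 16 carried a U number and 64 were unclassified by name. The names gave 18S ribosomal RNA as the target of 45 H/ACA and 26 C/D members, and 28S ribosomal RNA as the target of 63 H/ACA and 59 C/D members. All 295 members were annotated as 1 exon. On the same strand, 282 lay within the span of one of 121 host genes, 70 of them in 28 ribosomal protein genes and 48 in 7 Uhg genes, and 13 lay within no gene. The largest clusters were in dom, with 17 members, and in Arpc2 and Uhg1, with 16 each. Positions are those of Release 6 of the genome as given with the counts.

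The wild-type (WT) libraries carried no knockdown. In poxn > prosRNAi VNCs (pros tumors) the poxn-Gal4 driver expressed UAS-mCherry.NLS, UAS-dicer2 and UAS-prosRNAi1, so that the transcription factor prospero (pros) was knocked down in the few thoracic NBs in which the driver is active. In poxn > prosRNAi, SypRNAi VNCs (pros Syp tumors) UAS-SypRNAi1 was added, which targets the RNA-binding protein Syncrip (Syp). Each condition had 2 libraries from adults with a labelled age of 6 days. The study's methods describe the tumor samples as pooled VNCs of both sexes, from flies older than the labels state, and name the duplicates of each condition as technical, so the p-values measure only the spread between these libraries. The dissected tissue held the tumor and the VNC around it, and the paper does not describe the WT libraries.

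Library totals ranged from 86098417 to 128107088 counts, with 15.6% to 23.8% in ribosomal RNA rows. The knockdown targets were lower where the labels name a knockdown. Thus pros stood at 2504 and 2335 CPM (counts scaled to the size of the library) in WT against 736 to 1254 in the 4 tumor libraries. Syp stood at 699 and 688 CPM in WT, 2066 and 1762 in pros tumors and 422 and 459 in pros Syp tumors. Whether the lower pros counts came from the knockdown or from a different mix of cells cannot be told here. The summed CPM of 6 NB markers was 12.6 and 11.7 in WT and 1760 to 2423 in the tumor libraries, while that of 10 neuron markers went from 8139 and 8057 to between 1621 and 2776. In bulk libraries, fewer cells of a type and less RNA per cell cannot be told apart. Between the tumors, the NB markers summed to 2423 and 2266 CPM in pros against 1919 and 1760 in pros Syp tumors. Most of that difference was mira, at 988 and 934 against 488 and 485 CPM. By the edgeR test used below, 2 NB markers were called lower, mira and insc, and 1 higher, ase. The neuron markers summed to 1621 and 1916 against 2182 and 2776, with 3 called higher and 1 lower. In the same order, 12 muscle markers summed to 225 and 222 against 1131 and 1889. The 7 glia markers summed to 686 and 741 against 997 and 1216, with 3 called higher and 1 lower. The 7 fat body markers summed to 1564 and 990 against 332 and 245. Of these, 5 were called lower and 2, Fbp1 and Fbp2, higher. None of these sums overlapped between the tumors. The part of these cell types in the results was not tested.

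Of the counts, members took 0.138% and 0.159% in the WT libraries, 0.433% and 0.570% in pros tumors, and 0.372% and 0.382% in pros Syp tumors. The share was thus higher in each of the 4 tumor libraries than in both WT libraries, and the libraries of pros tumors were the farthest apart. The counts were unevenly spread over the members. The 3 members with the most counts held 27.4% of all member counts and the 10 with the most held 45.0%, while 149 members had fewer than 1000 counts over all libraries.

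Some rows do not measure a snoRNA alone. Reads were counted without regard to strand, and a read on overlapping exons was counted for each gene, so 59 members that overlap an exon of another gene (53 over their whole length) share its reads. Values by class are therefore given for the 236 clear members, which overlap no exon of another gene. Of these, 145 lay less than 100 bases, the read length, from an exon of another gene, and reads from unspliced or intron-retaining host RNA cannot be told apart from the snoRNA in these counts. Reads were kept only where they aligned to 1 place, as the names of the authors' alignment files state, which makes the levels of near-identical copies uncertain.

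To ask how snoRNA levels differ between tumor-bearing and WT VNCs, pros tumors were compared with WT. Most members were higher in the tumors: of 295 tested, 241 rose and 29 fell (edgeR quasi-likelihood test, Benjamini-Hochberg adjusted p under 0.05 over 14162 genes). The changes among all tested genes were about even, with 41.9% higher and 40.7% lower. The median log2 fold change was 1.92 over members and 0.01 over all genes. With only the 236 clear members, 195 rose and 18 fell, with a median of 1.83. Among clear members at least 100 bases from another exon, 62 of 91 rose and 15 fell, with a median of 1.35.

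Pros Syp tumors were also compared with WT, which means that both tumor comparisons share the WT libraries. Here 229 of 295 members rose and 25 fell, against 39.8% higher and 36.7% lower among 14289 genes, and the median log2 fold change was 1.72 over members and 0.04 over all genes. By class, the median of clear members for pros tumors and for pros Syp tumors against WT was 2.05 and 1.43 for 111 H/ACA genes, 1.74 and 1.67 for 81 C/D genes, 2.16 and 2.19 for 16 U-numbered genes, and 1.26 and 0.73 for 28 unclassified genes. All 16 U-numbered genes rose in both comparisons.

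Comparing pros Syp with pros tumors asks what differed when Syp was knocked down as well. Of 286 members tested, 62 fell and 3 rose, against 12.4% lower and 10.9% higher among 13703 genes. That background depended on the scaling: 1701 genes were lower and 1489 higher here, and 956 lower and 2435 higher with library totals alone. Of the 62 that fell, 40 were H/ACA genes, 21 were unclassified and 1 was a C/D gene. The unclassified ones include 7 copies of snmRNA:430, which overlap histone exons. Of 228 clear members tested, 53 fell (23.2%) and 2 rose. Of 110 clear H/ACA genes tested 40 fell and 0 rose, with a median log2 fold change of -0.53. Of 27 clear unclassified genes tested 12 fell (44.4%) and 0 rose, with a median of -0.67. By contrast, of 75 clear C/D genes 1 fell and 2 rose, with a median of 0.03. Of 16 U-numbered genes 0 passed the test, with a median of 0.02 and 2 at an unadjusted p under 0.05. The median over all tested genes was 0.02. In the same comparison the neuron, muscle and glia marker sums given above were higher, and the fat body sum was lower. The NB sum was lower, mostly through mira, while 1 NB marker was called higher. With DESeq2's Wald test, 53 of the clear H/ACA genes fell and 1 rose, and the C/D counts were the same. The difference between classes was not itself tested.

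**Figure D1:**
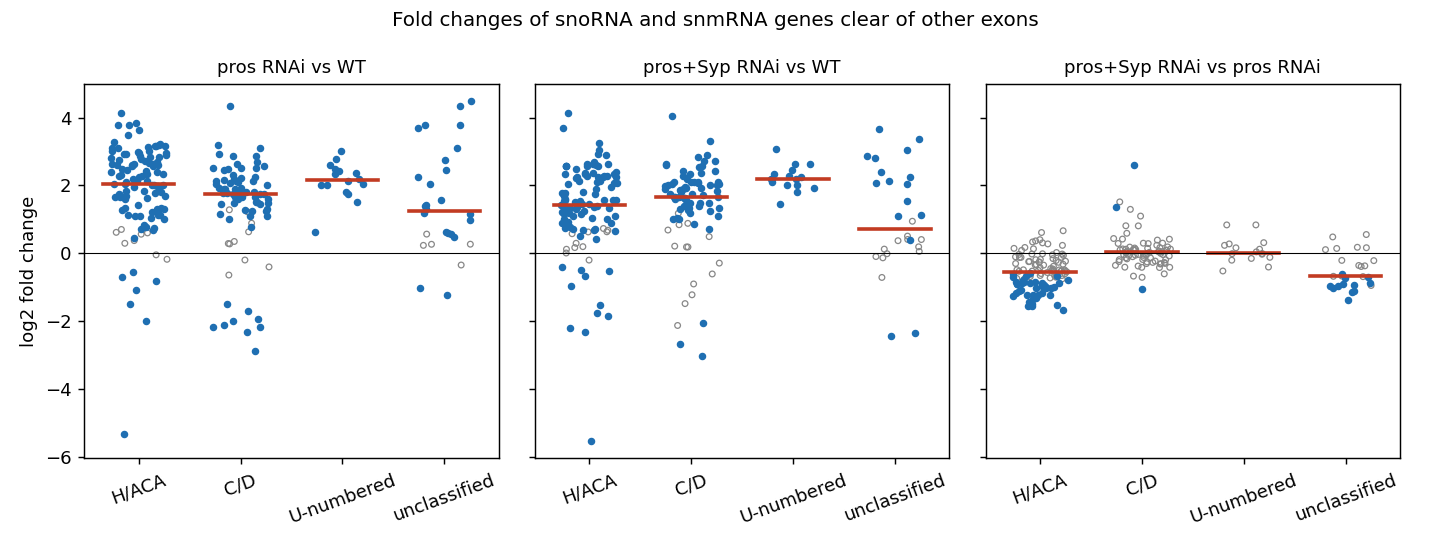
Log2 fold change (vertical axis) of each member clear of other exons, by class, in the 3 comparisons; filled points had an adjusted p under 0.05 and red lines are medians. In the right-hand panel the medians lie at -0.53 for H/ACA, -0.67 for unclassified and 0.03 for C/D genes. The H/ACA and C/D genes lie mostly above 0 in the comparisons with WT.

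These falls rested on the spread of 4 libraries. Without the second pros library 0 members passed the test in either direction, and only 6 genes passed among all 14265 tested. Without the first pros library 29 members fell and 0 rose. The second pros library was the higher one for 96 of the 111 clear H/ACA genes, with a median log2 ratio between the replicates of 0.31 (0.5 CPM added), compared with -0.02 for C/D genes. Still, both pros Syp libraries lay below both pros libraries for 85 of 110 tested H/ACA genes (77.3%) and for 21 of 75 C/D genes (28%), compared with 34.0% of all tested genes. The median H/ACA fold change was -0.38 without the second pros library and -0.73 without the first.

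Level and length differed between the classes too. Clear H/ACA genes had a median length of 140 bases and a median of 2863 counts over the 6 libraries, and C/D genes 80 bases and 375 counts. On the scale of CPM divided by gene length in kilobases (RPKM), the median H/ACA level was 12.3 in WT, 54.2 in pros and 35.4 in pros Syp tumors, and the median C/D level was 2.85, 9.88 and 9.79. Of the 44 clear H/ACA genes tested with no more counts than the highest clear C/D gene, 5 fell (11.4%) with a median log2 fold change of -0.32. Of the 66 with more counts 35 fell (53.0%) with a median of -0.69. Among all tested genes 12.4% fell, so calls were above that share only in the genes with more counts. The part of level and length in the difference was not tested.

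U3 genes are described first, since this snoRNA acts in cleaving the precursor. U3:54Ab (2R:17145654-17145826), the member with the most counts, stood at 90.9 and 82.9 CPM in WT, 315 and 553 in pros tumors, and 507 and 572 in pros Syp tumors. All 4 tumor libraries were above WT, with a log2 fold change of 2.32 ± 0.27 (SE, n = 2 per group; edgeR adjusted p = 0.000495) in pros and 2.63 ± 0.11 (adjusted p = 9.21e-05) in pros Syp tumors, and the tumors overlapped each other.

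The neighboring copy U3:54Aa (2R:17143521-17143693) had 26.9 and 24.6 CPM in WT, 56.3 and 89.7 in pros, and 118 and 142 in pros Syp tumors. Here the 3 conditions did not overlap, but the step from pros to pros Syp tumors, at 0.84 ± 0.24, did not pass the test (edgeR adjusted p = 0.0646). The remaining copy, U3:9B on the X chromosome, showed the same order at 9.65 and 8.62, 11.6 and 16.7, and 21.5 and 28.9 CPM, again with 0.84 ± 0.23 for the last step (edgeR adjusted p = 0.0567). Per length, the copies ran from 54.4 RPKM for U3:9B to 502 for U3:54Ab in WT. Because the copies resemble each other and only uniquely placed reads were counted, the split between them is uncertain.

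The remaining U-numbered genes had much lower counts. The other 13 lie in Uhg1, Uhg2 or RpL14. U29:54Eb in Uhg1 had 12 and 27 counts in WT, 131 and 106 in pros and 126 and 117 in pros Syp tumors, and rose by a log2 fold change of 3.02 ± 0.36 in pros tumors (edgeR adjusted p = 0.000545). U14:30Ea in Uhg2, of a family that both methylates and helps to process 18S ribosomal RNA, had 33 and 30, 125 and 120, and 160 and 143 counts, with a rise of 2.42 ± 0.26 (edgeR adjusted p = 0.000374). In both genes the tumor libraries were all above WT, and the tumors did not differ by the test.

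Among the most abundant H/ACA genes, Psi28S-291, which lies in an intron of the ribosomal protein gene RpL3, had 40.0 and 34.5 CPM in WT, 325 and 592 in pros and 297 and 322 in pros Syp tumors. Psi18S-1820, in an intron of Nop60B itself, had 24.1 and 22.1, 157 and 241, and 117 and 119 CPM. Both were far above WT in every tumor library, with log2 fold changes of 3.62 ± 0.31 and 3.11 ± 0.22 in pros tumors (edgeR adjusted p = 0.00013 and 6.17e-05). Psi18S-1820 was lower in both pros Syp libraries than in both pros libraries, although the difference of -0.75 ± 0.21 was not called (edgeR adjusted p = 0.0614).

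Tudor-SN-a, unclassified by name and 311 bases long, is within Tudor-SN, the gene of a nuclease with Tudor domains. It had 46.2 and 47.7 CPM in WT, 604 and 686 in pros and 377 and 398 in pros Syp tumors. The 3 conditions did not overlap, and each step was called, with log2 fold changes of 3.78 ± 0.09 in pros tumors against WT (edgeR adjusted p = 5.18e-06) and -0.73 ± 0.09 in pros Syp against pros tumors (adjusted p = 0.011). Per length, it was at 151 RPKM in WT and 2073 in pros tumors.

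**Figure D2:**
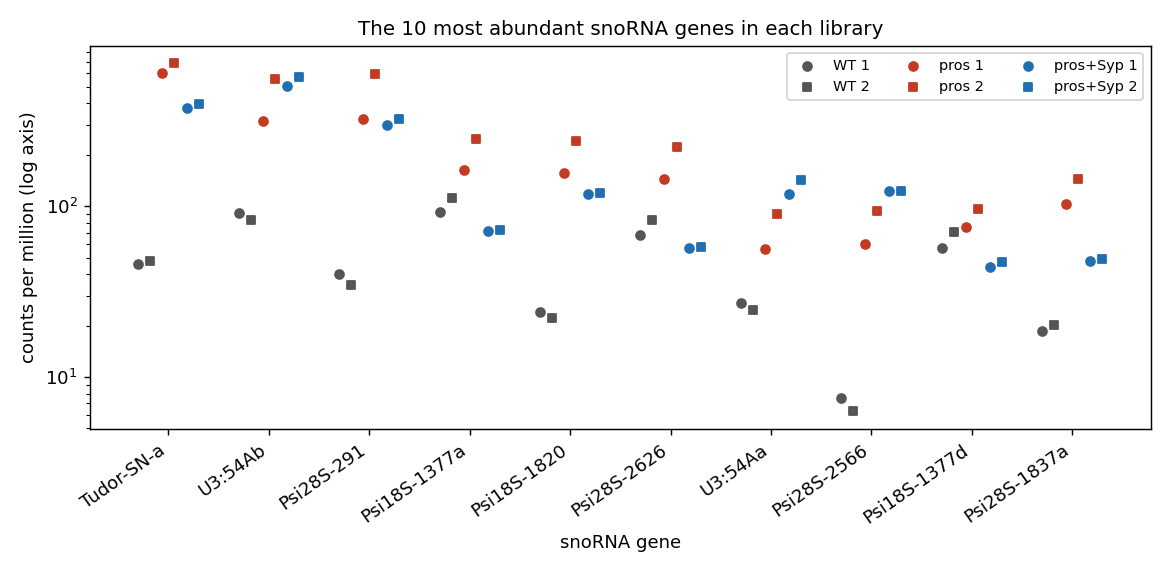
CPM (log axis) of the 10 members with the highest mean, 1 point per library (circles replicate 1, squares replicate 2). All 10 are above WT in both pros libraries, while Psi18S-1377a, Psi18S-1377d and Psi28S-2626 are below WT in both pros Syp libraries, and U3:54Aa and Psi28S-2566 are highest in pros Syp tumors.

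Psi28S-2566 ran against its host. It lies within CG3902, which is annotated as a gene for an acyl-CoA dehydrogenase, and had 7.51 and 6.30 CPM in WT, 60.0 and 94.1 in pros and 122 and 122 in pros Syp tumors. Against WT the log2 fold change was 3.48 ± 0.24 in pros and 4.14 ± 0.12 in pros Syp tumors (edgeR adjusted p = 6.04e-05 and 5.7e-05). The exons of CG3902 fell by 2.56 on the log2 scale in pros tumors, from 48.7 and 46.5 CPM to 9.33 and 6.66. Psi28S-2566 is the member with the largest rise among clear H/ACA genes in pros Syp tumors, and the only clear member that rose in pros tumors while its host was called lower.

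The 7 H/ACA genes within RpS7 (3R:30206447-30209020), which codes for a protein of the small ribosomal subunit, moved in different directions. Psi28S-2626 had 67.8 and 82.5 CPM in WT, 145 and 223 in pros tumors and 57.3 and 57.4 in pros Syp tumors, and Psi18S-1377a had 92.1 and 112, 163 and 248, and 71.3 and 72.7. Both rose in pros tumors (log2 fold changes of 1.30 ± 0.22 and 1.01 ± 0.21) and were below WT in pros Syp tumors (-0.39 ± 0.11 and -0.51 ± 0.11; edgeR adjusted p = 0.0248 and 0.0112).

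By contrast, Psi18S-1377c had 45.2 and 59.2 CPM in WT, 28.4 and 35.5 in pros tumors and 11.2 and 11.6 in pros Syp tumors. Psi28S-2149, the last in the order of transcription, had 17.8 and 18.5, 7.54 and 9.69, and 3.35 and 4.01 CPM. In both, each condition lay below the one before, with log2 fold changes against WT of -0.71 ± 0.17 and -1.07 ± 0.13 in pros tumors and -2.20 ± 0.15 and -2.30 ± 0.13 in pros Syp tumors (edgeR adjusted p of 0.00936 at most). Psi18S-1377b also fell in both, while Psi18S-1377d and Psi18S-1377e rose in pros tumors by 0.44 ± 0.15 and 0.73 ± 0.18. In pros Syp tumors Psi18S-1377d was below WT as well, at -0.48 ± 0.12 (edgeR adjusted p = 0.0197).

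All 7 were lower in pros Syp than in pros tumors, by a median log2 fold change of -1.22 and a range from -1.68 to -0.59. The exons of RpS7 went the other way, from 489 and 526 CPM in WT to 1126 and 1086 in pros and 1308 and 1340 in pros Syp tumors, with a log2 fold change of 0.26 ± 0.06 between the tumors (edgeR adjusted p = 0.0416). Psi18S-1377a to 1377e share a name and target and may share reads that were not uniquely placed, so their separate levels are uncertain. Psi28S-2626 and Psi28S-2149 have no other copy among the members by name.

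**Figure D3:**
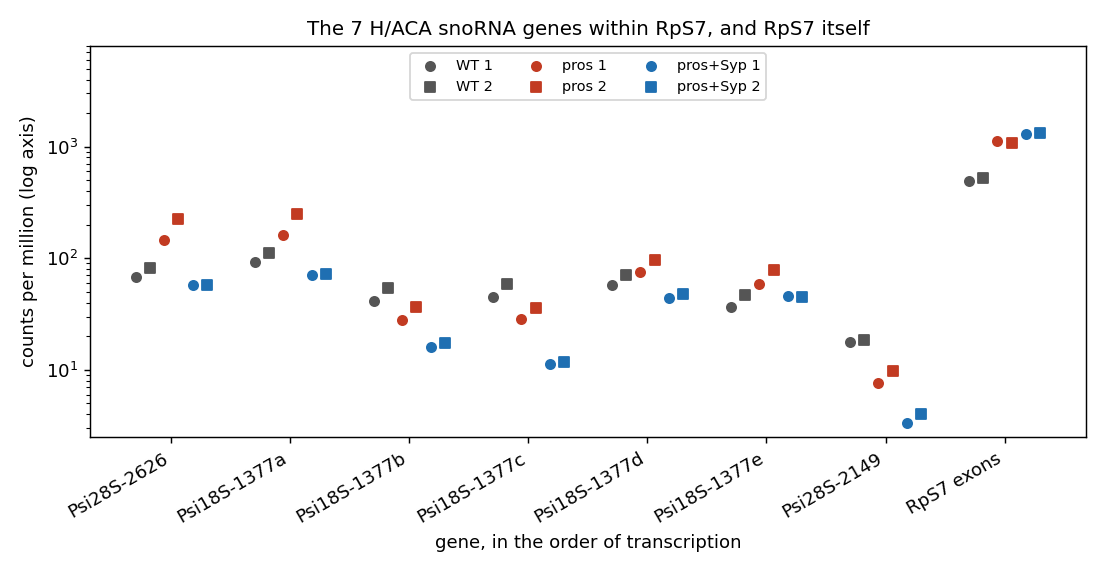
CPM (log axis) of the 7 H/ACA genes within RpS7 and of the RpS7 exons, in the order of transcription, 1 point per library. The pros Syp libraries are below the pros libraries for all 7 snoRNA genes, and above them for RpS7.

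Some other clusters held members that fell between the tumors without a fall below WT. Among all tested genes 12.4% fell between the tumors. Clusters differed in this, as 0 of 5 members in RpS16, 1 of 9 in Sf3b3 and 2 of 16 in Arpc2 fell. In kra, a regulator of translation, 8 H/ACA genes rose in pros tumors and 4 of them fell again in pros Syp tumors. Psi28S-3091b had 7.10 and 7.85 CPM in WT, 84.5 and 122 in pros and 36.6 and 34.4 in pros Syp tumors, and its fall of -1.54 ± 0.19 between the tumors was among the largest (edgeR adjusted p = 0.0114). The kra exons stood at 280 and 272 CPM in pros and 282 and 259 in pros Syp tumors.

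In CG10576, Psi28S-1837a went from 18.5 and 20.2 CPM in WT to 103 and 145 in pros and 47.9 and 49.2 in pros Syp tumors, and its copies Psi28S-1837b and Psi28S-1837c fell between the tumors as well. In RpL17 3 of 4 H/ACA genes fell, among them Psi28S-1060 with 17.7 and 17.8, 91.3 and 126, and 47.1 and 45.6 CPM. In RpS5a 14 H/ACA genes rose in pros tumors and 6 of them fell between the tumors, the most by Psi28S-1135e at -1.18 ± 0.12 (edgeR adjusted p = 0.00893). In dom, which codes for a chromatin remodeler, all 17 members rose in pros tumors, and 6, all of them H/ACA genes, fell between the tumors. Psi18S-841b in dom went from 0.728 and 0.545 CPM in WT to 9.83 and 13.0 in pros and 5.87 and 6.47 in pros Syp tumors.

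Not every abundant H/ACA gene was lower in pros Syp tumors. Psi18S-1086 in Sf3b3, a splicing factor gene, had 4.88 and 4.03 CPM in WT, 50.8 and 75.8 in pros and 59.6 and 57.0 in pros Syp tumors. It was far above WT in both tumors, whose libraries overlapped, with a log2 fold change between them of -0.12 ± 0.19 (edgeR adjusted p = 0.699).

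Arpc2, which codes for a subunit of the Arp2/3 complex, holds 16 members of the Psi18S-525 and Psi18S-640 series. Of these 16, 9 rose and 2 fell in pros tumors, against 41.9% higher and 40.7% lower among all tested genes. Between the tumors 2 of the 16 fell and 0 rose, a share near the 12.4% lower among all tested genes. Psi18S-640g had 0.416 and 0.340 CPM in WT, 3.25 and 3.61 in pros and 1.95 and 1.80 in pros Syp tumors, a rise of 3.13 ± 0.21 on the log2 scale in pros tumors (edgeR adjusted p = 5.38e-05). Its neighbor Psi18S-525i had 0.485 and 0.348, 2.26 and 3.01, and 1.30 and 1.03 CPM.

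Both falls in pros tumors lay at the other end of the gene. Psi18S-525b (2L:20418670-20418804) had 95 and 89 counts in WT and 0 in all 4 tumor libraries. A count of 0 allows up to 3 counts in a library, by counting error only, so the level was at least 19.3-fold lower in pros and at least 25.8-fold lower in pros Syp tumors. This holds for reads that align to the reference sequence, and whether the flies of the 3 conditions carry the same sequence here was not tested. Psi18S-525c, the next in order, had 122 and 127 counts in WT, 18 and 22 in pros and 33 and 30 in pros Syp tumors. Psi18S-640a, just before Psi18S-525b and too low to be a member, had 28 and 24 counts in WT and 0 in the 4 tumor libraries and is named here after its values were seen. The Arpc2 exons rose by 0.87 ± 0.07 in pros tumors (edgeR adjusted p = 9.49e-05).

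**Figure D4:**
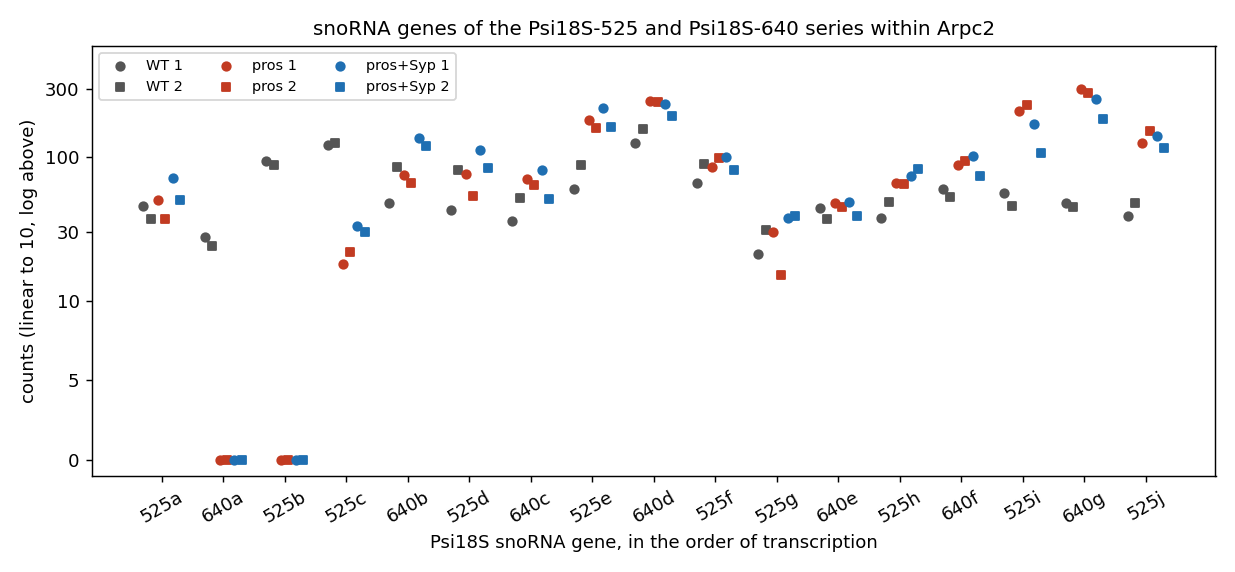
Counts per library, not scaled to depth (linear to 10, log above), of the Psi18S-525 and Psi18S-640 genes within Arpc2 in the order of transcription, including Psi18S-640a, which is below the minimum. Psi18S-640a and Psi18S-525b are at 0 in the 4 tumor libraries only.

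A pair of unclassified genes with no host, 2R:9445410 and 2R:9445205, fell in both tumors. The first (2R:13557905-13558055) had 44.6 and 49.9 CPM in WT, 19.5 and 26.6 in pros and 8.70 and 8.89 in pros Syp tumors, so that no conditions overlapped. Its log2 fold change was -1.03 ± 0.16 in pros and -2.43 ± 0.08 in pros Syp tumors (edgeR adjusted p = 0.00157 and 6.32e-05).

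The clear C/D genes had low counts, with no more than 2112 over the 6 libraries. Within the Uhg genes all 29 clear C/D genes rose in both tumors against WT, and 0 passed the test between the tumors, with 1 at an unadjusted p under 0.05. Ribosomal protein genes held 17 more clear C/D genes, all of which rose in both tumors. In the other host genes, 15 of 34 rose (44.1%) and 9 fell (26.5%) in pros tumors, against 41.9% and 40.7% of all tested genes. In pros Syp tumors 17 rose (50%) and 3 fell (8.8%), against 39.8% and 36.7%. The 9 that fell in pros tumors are all among the rows without a counterpart in the newer annotation.

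Of the 295 members, 22 overlap no small RNA gene of the annotation used for identifiers, and 20 of these are clear members. Among the 20, 4 rose (20%) and 10 fell (50%) in pros tumors, against 41.9% and 40.7% of all tested genes. Their changes were close to those of their hosts, with a median difference of -0.01 between the log2 fold changes. The Pearson r was 0.93 across the 20 genes, which share their libraries and are not independent. Me18S-G962, chosen after its values were seen, lies in klu, a gene for a zinc-finger transcription factor. It had 5 and 13 counts in WT, 188 and 127 in pros and 176 and 157 in pros Syp tumors. Its log2 fold change in pros tumors was 4.35 ± 0.39, against 4.36 ± 0.09 for klu.

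The changes of C/D genes differed with the distance from exons, most in pros tumors. Of the 62 clear C/D genes within 100 bases of another exon 58 rose and 0 fell in pros tumors. Of the 19 farther away 4 rose (21.1%) and 9 fell (47.4%), against 41.9% and 40.7% of all tested genes. In pros Syp tumors against WT the counts were 58 and 0 of the 62, and 6 and 3 of the 19, with a median of 0.19 over the 19. Of those 19, 15 are among the rows without a counterpart. For H/ACA genes at least 100 bases away, 49 of 59 rose and 4 fell.

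The 2 clear C/D genes that rose between the tumors were both low. Me28S-A30, in Eip75B, a gene for an ecdysone-induced nuclear receptor, had 54 and 40 counts in WT, 2 and 4 in pros and 38 and 35 in pros Syp tumors, with a log2 fold change of 2.59 ± 0.49 between the tumors (edgeR adjusted p = 0.0263). Or-CD1, in Swim, had 67 and 68, 35 and 24, and 130 and 87 counts, with 1.37 ± 0.28 (edgeR adjusted p = 0.0318). The exons of Eip75B moved in the same directions as Me28S-A30, at -1.47 ± 0.06 in pros tumors against WT and 0.89 ± 0.07 between the tumors. Those of Swim were at 0.63 ± 0.17 and 0.37 ± 0.22. Between the tumors the edgeR adjusted p was 0.00578 for Eip75B and 0.28 for Swim. The other member that rose, snmRNA:838, overlaps an exon of vsg over its whole length. Me28S-A30 has no counterpart in the newer annotation.

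The largest rises were in copies of snmRNA:430, each 36 bases long and within a His2A histone gene. Among clear members the largest log2 fold change was 4.50 in pros and 4.14 in pros Syp tumors, within the range of the copies. All 20 copies rose, with log2 fold changes from 4.05 to 5.21 in pros tumors and from 3.50 to 4.65 in pros Syp tumors. The largest, snmRNA:430:CR33745, had 0.572 and 0.696 CPM in WT, 24.9 and 23.2 in pros and 15.3 and 17.4 in pros Syp tumors. These rows count the reads of histone exons, and the copies of the repeat share sequence. In the same way 3 members within Msp300 exons fell with Msp300, and Me28S-G1083a, on an exon of Nop60B, rose by 4.34 ± 0.34 in pros tumors where Nop60B rose by 3.76 ± 0.07.

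The host genes as a group were mostly higher in the tumors. Of 121 hosts tested, 93 rose and 23 fell in pros tumors, against 41.9% higher and 40.7% lower among all tested genes. The median log2 fold change was 1.56. Between the tumors 13 rose and 48 fell, against 10.9% higher and 12.4% lower among all tested genes, with a median of -0.20. The hosts include 20 His2A copies of the histone repeat, which share sequence. All of these copies rose in pros tumors, and most were called lower between the tumors. Of the 195 clear members within hosts that rose in pros tumors 175 rose and 5 fell, and of the 16 within hosts that fell 1 rose and 11 fell. Between the tumors, of the 71 clear members within hosts that fell 9 fell, a share near the 12.4% of all tested genes. Of the 17 within hosts that rose 10 fell, namely 7 in RpS7 and 3 in pAbp. The Spearman rank correlation between members and hosts was 0.44 over 224 genes in pros tumors against WT and -0.18 over 216 genes between the tumors, as a description, since members of a host share its value. The classes differed in this. For clear C/D genes it was 0.57 over 80 genes against WT and 0.46 over 74 between the tumors. For clear H/ACA genes it was 0.23 over 106 genes and -0.20 over 105.

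**Figure D5:**
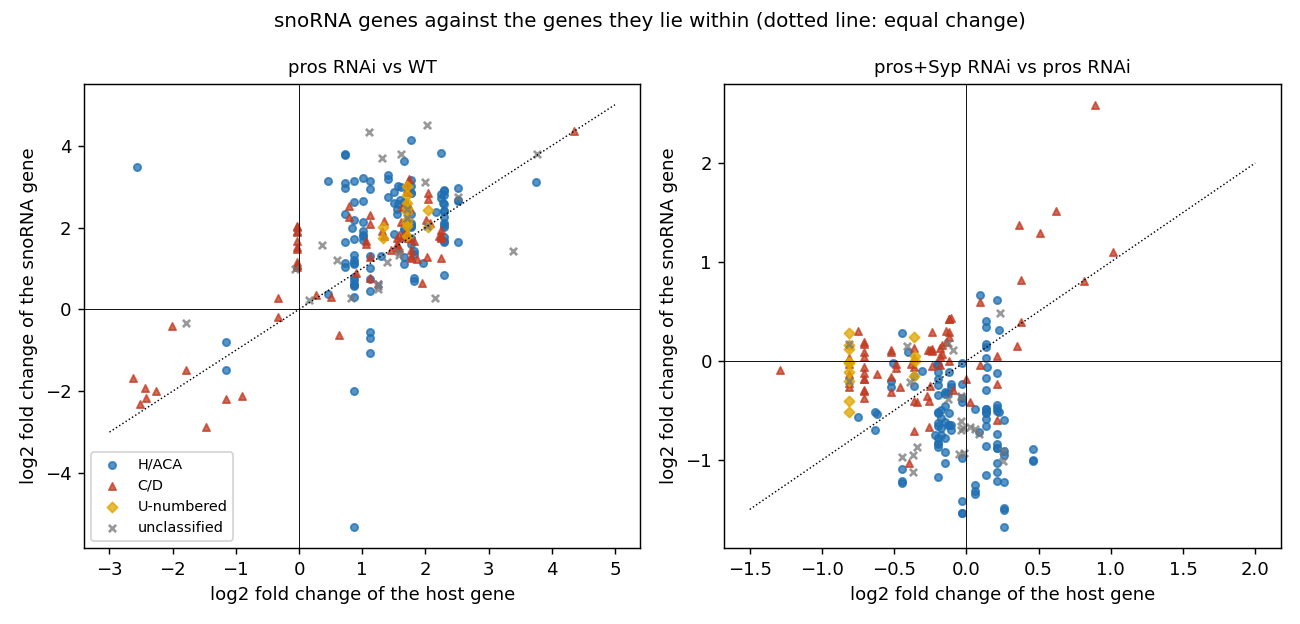
Log2 fold change of each clear member (vertical axis) against that of its host gene (horizontal axis), for pros tumors against WT and for pros Syp against pros tumors; the dotted line marks equal change. In the right-hand panel H/ACA genes lie mostly below the line (81 of 105) and C/D genes mostly above it (58 of 74).

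The Uhg5 exons did not follow its members in the comparison with WT. They stood at 48.8 and 53.3 CPM in WT, 48.4 and 51.3 in pros and 33.3 and 27.5 in pros Syp tumors, and did not pass the test in pros tumors, at -0.03 ± 0.08 (edgeR adjusted p = 0.733). All 11 C/D genes within it rose, with a median log2 fold change of 1.52. Uhg1 rose in pros tumors by 1.71 ± 0.08 and was lower by 0.81 on the log2 scale in pros Syp than in pros tumors, where 0 of its 16 members passed the test, with a median of -0.07.

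The RNA counts of genes for proteins that form snoRNA particles rose, as did those of most snoRNA genes, in the comparisons with WT. All 4 C/D core genes (Fib, nop5, Nop56 and hoip) and all 4 H/ACA core genes (Nop60B, NHP2, CG7637 and CG4038) rose in both tumors. Fib, the methyltransferase, had 9.94 and 8.77 CPM in WT, 133 and 122 in pros and 118 and 128 in pros Syp tumors, and Nop60B, the pseudouridine synthase, had 21.6 and 20.8, 293 and 279, and 251 and 241. Their log2 fold changes in pros tumors were 3.77 ± 0.10 and 3.76 ± 0.07 (edgeR adjusted p = 5.73e-06 and 4.25e-06).

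Between the tumors 0 of these 8 core genes passed the test, with 1 at an unadjusted p under 0.05, while DESeq2's Wald test called 1, Nop60B, lower. Fib differed by -0.05 ± 0.08 and Nop60B by -0.21 ± 0.07 (edgeR adjusted p = 0.68 and 0.0757). Of 8 assembly and maturation genes, all rose in both tumors, although coil was not called in pros tumors with library totals alone (log2 fold change of 0.11 in place of 0.39). Between the tumors ldbr, the debranching enzyme that opens intron lariats, fell by 0.42 on the log2 scale, from 20.3 and 20.4 to 15.2 and 15.2 CPM, and coil, the coilin gene of Cajal bodies, rose by 0.45, from 15.4 and 16 to 21.2 and 21.6 CPM. Neither call was made without either pros library.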

How the data were processed

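Total RNA-seq was done on 6 libraries, 2 per condition, and the groups were taken from the sample labels. The labels' protocol gives total RNA depleted of ribosomal RNA, while their description calls it PolyA RNA; the protocol was followed here, and which holds bears on how fully snoRNAs are captured. Using Subread, the authors aligned reads against dmel6, then ran featureCounts 1.5.0 on FlyBase 6.19 exons, without strand, with each mate counted on its own and overlapping genes all credited, and the deposited table holds these raw counts per gene. The submitters' build list also names dm3, but the file header points to dmel6 and the positions match Release 6.

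Members were found by name and summed count, classed by name, and placed against the exons and genes of the same table. Of the 295, 270 had the position of a gene of Ensembl release 115, 3 overlapped a small RNA gene at another position and 22 overlapped none. The members and gene lists were chosen with earlier results of these data known. No sequences are printed, since none were used here.

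In R 4.3.3, edgeR 4.0.16 fitted the 4 libraries of each comparison over all genes passing filterByExpr (minimum count 10) with TMM factors and a prior count of 2, and calls were made at a Benjamini-Hochberg adjusted p under 0.05. CPM values use TMM-scaled totals of all 6 libraries, RPKM divides them by gene length, and SE is the log2 fold change divided by the root of F. The fits were tested on simulated data. Alternatives were DESeq2 1.42.0, other scalings and filters, all libraries in 1 fit, a replicate block, a threshold of 0.001, clear members only and leaving out each library.

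Genes named are the 10 most abundant members, up to 10 called members with the largest change per comparison, U-numbered members, members of hosts with at least 4, those next to the minimum, the fixed lists and the hosts of these. Replicates differed beyond sampling noise in every condition (chi-square per degree of freedom of 85.6 to 174), so none were merged. Intervals and floors cover counting error only.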

Additional observations from a re-analysis of the deposited data

How the results depend on the processing

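With 2 libraries per condition, leaving out 1 library mattered most for the comparison between the tumors. Leaving out each library in turn, the members higher in pros tumors than in WT numbered 224 to 236 and the members lower 22 to 27. For pros Syp tumors against WT, 197 to 221 were higher and 16 to 28 lower, with 16 lower without WT replicate 2. Between the tumors 0 to 2 were higher and 0 to 54 lower. At an adjusted p under 0.001, the members higher and lower were 152 and 9 in pros tumors, 94 and 9 in pros Syp tumors, and 0 and 0 between the tumors. Among clear members 18 were lower in pros and 16 in pros Syp tumors. With the distance of 100 bases from another exon, chosen after seeing the data, 62 rose and 15 fell in pros tumors, 55 rose and 12 fell in pros Syp tumors, and 31 fell between the tumors. With at least 10 counts in every library, 18 were lower in pros tumors.

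The 3 members higher between the tumors became 6 with library totals alone and with DESeq2's Wald test, and 5 with totals without ribosomal RNA rows, with no filter beyond 1 count and with all 6 libraries in 1 fit. Library totals alone moved the median of all genes to -0.27 in pros tumors, -0.09 in pros Syp tumors and 0.15 between the tumors, and totals without ribosomal RNA rows moved it to -0.18, -0.03 and 0.13. With totals alone the medians of members were 1.64, 1.57 and -0.13. A minimum of 6 summed counts gave 307 members and one of 600 gave 183.

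With the replicate number as a block, 238 members were higher and 26 lower in pros tumors, 216 and 21 in pros Syp tumors, and 7 and 69 between the tumors. No label says that a number marks a shared batch or day. Same-numbered deviations correlated at -0.24 between WT and pros, -0.06 between WT and pros Syp and 0.33 between pros and pros Syp tumors, so the numbers were not used as pairs, although a shared factor in the tumor libraries was not tested. With the numbers crossed between WT and pros tumors, also chosen after seeing the data, 239 were higher and 28 lower.

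Of the genes given with a fold change, some that did not pass the test changed sign. Psi18S-1377e in pros Syp tumors against WT was at -0.0234 with totals alone, and between -0.0074 and 0.3232 leaving out 1 library. Between the tumors, totals alone and totals without ribosomal RNA rows gave 0.0203 and 0.0001 for Psi18S-1086, 0.0786 and 0.0613 for Fib, and 0.1067 and 0.0876 for kra. Leaving out 1 library gave -0.3793 to 0.2082 for Psi18S-1086, -0.1204 to 0.0102 for Fib, -0.0907 to 0.0289 for kra, -0.0366 to 0.7861 for U3:54Ab, -0.0638 to 0.4542 for Psi18S-525c, and -0.1667 to 0.3598 for CG3902. It gave -0.0974 to 0.0372 for Uhg5 in pros tumors and -0.5382 to 0.0759 for Me28S-A30 in pros Syp tumors against WT. The causes were not tested.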
